A study of Rattus norvegicus with 35 samples.

Results

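The acute phase genes of rat liver were described across the doses of TBB, a flame retardant that is an ester of a brominated benzoic acid. The 10 genes were A2m, Hp, Orm1, Crp, Fga, Fgb, Fgg, Lbp, Cp and Hpx, out of 14217 genes that had a probe set annotated with 1 gene symbol alone. They held 15 of the 31042 probe sets tested, and each gene was followed on the probe set with the highest mean over all 35 arrays. A2m was included because its value at 550 mg/kg was low against vehicle, so its values at that dose are given as a description, with no test. The question was whether A2m was lower alone or together with the other genes that inflammation raises (positive acute phase genes) or lowers (negative acute phase genes).

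The animals were Sprague Dawley rats, all male, aged 7 weeks when dosing began and fed NTP-2000 diet. They received TBB in corn oil by gavage at 5 ml/kg on 5 consecutive days. The groups were corn oil vehicle (0 mg/kg, 5 arrays) and 0.05, 0.55, 5.50, 55 and 550 mg/kg (6 arrays each), with no genetic alteration named in the labels. RNA came from the left liver lobe taken 1 day after the last dose and was measured on Affymetrix 3' arrays, so a response that had come and gone within the dosing period was not sampled. No label ties an array to 1 animal. The p-values therefore rest on the spread from sample to sample, part or all of which may be technical.

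In an acute phase response, cytokines released during injury or infection make hepatocytes change the plasma proteins they secrete. Interleukin-6 acts through the receptor chain gp130 (Il6st) and the transcription factor STAT3, together with glucocorticoids, and in rat liver it drives A2m and the 3 fibrinogen chains. Interleukin-1 works together with interleukin-6 on genes such as Orm1, Crp, Hp and Hpx. A2m is a major acute phase protein of the rat, low in healthy adults and strongly induced by inflammation, whereas in humans its plasma level hardly moves.

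Pairwise correlations between the arrays across probe sets ran from 0.988 to 0.996, and array medians from 5.09 to 5.16 on the log2 scale. All 11 listed hepatocyte markers were measured and averaged 12.85 ± 0.09 log2 at 550 mg/kg, against 12.99 ± 0.04 log2 in vehicle (SD over arrays, n = 6 and 5), so the tissue label stood. Values are log2 probe set levels, differences are log2 differences, and errors on differences are standard errors. Adjusted p-values are from limma, corrected over all 31042 probe sets, and a gene is said to rise or fall only where adjusted p was under 0.05. At 550 mg/kg against vehicle 0.499% of all probe sets passed that threshold, 0.145% lower and 0.354% higher.

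The fibrinogen genes lie together on chromosome 2 and varied together between arrays, and A2m, Hp and Lbp had no entry in the promoter table, so the fibrinogen promoters are shown. They are RefSeq sequences of the GRCr8 build, from 250 bases before to 50 bases after the annotated start, written 5′ to 3′ along the gene. Capitals mark CTGGGAA, the core of the interleukin-6 response element, and TTCNNNGAA, the letters of a STAT dimer site, both searched on both strands and able to overlap. Fga lies at chr2:170671919-170672218 on the plus strand, Fgb at chr2:170700826-170701125 on the minus strand and Fgg at chr2:170652833-170653132 on the plus strand.
Fga: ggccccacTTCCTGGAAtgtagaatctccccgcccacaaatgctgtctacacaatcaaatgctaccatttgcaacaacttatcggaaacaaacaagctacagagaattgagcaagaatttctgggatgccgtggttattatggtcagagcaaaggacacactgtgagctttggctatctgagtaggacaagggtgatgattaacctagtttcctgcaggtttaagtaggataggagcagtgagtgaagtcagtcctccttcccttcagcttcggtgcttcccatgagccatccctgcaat
Fgb: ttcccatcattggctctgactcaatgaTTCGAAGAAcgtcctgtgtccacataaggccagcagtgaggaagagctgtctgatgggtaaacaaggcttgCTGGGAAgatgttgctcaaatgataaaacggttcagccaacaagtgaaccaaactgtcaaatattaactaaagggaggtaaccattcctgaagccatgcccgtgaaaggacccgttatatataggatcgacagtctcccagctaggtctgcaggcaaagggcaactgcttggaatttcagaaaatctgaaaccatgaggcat
Fgg: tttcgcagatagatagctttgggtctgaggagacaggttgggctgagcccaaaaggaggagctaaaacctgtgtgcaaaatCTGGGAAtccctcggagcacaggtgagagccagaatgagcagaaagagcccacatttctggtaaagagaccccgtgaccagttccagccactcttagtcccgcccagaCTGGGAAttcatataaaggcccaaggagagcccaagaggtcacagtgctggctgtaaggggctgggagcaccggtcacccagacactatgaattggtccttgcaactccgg
CTGGGAA was present once in Fgb, at -152 from the start, and at -169 and -61 in Fgg. TTCNNNGAA was present at -242 in Fga and at -223 in Fgb. Of 33469 rat promoters of the same length, 11.3% held CTGGGAA and 8.87% held TTCNNNGAA. Entries for 7 of the 10 genes were found, and neither motif was in the windows of Orm1, Crp, Cp and Hpx. Fga had a further entry with a later start, whose window does not reach the site. These matches are letters in a window and do not show that a factor binds there.

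A2m, which encodes the broad protease inhibitor alpha-2-macroglobulin, was low in all 6 arrays at 550 mg/kg and near its vehicle level at the lower doses. The 6 arrays at 550 mg/kg gave 7.37, 7.67, 8.02, 7.59, 8.00 and 6.91, against 9.57, 8.74, 9.27, 8.49 and 9.97 in the 5 vehicle arrays. The groups did not overlap, which held for 0.548% of all probe sets in the lower and 0.796% in the higher direction, and vehicle itself spread over 1.49 log2. Means were 7.59 ± 0.42 at 550 mg/kg and 9.21 ± 0.60 in vehicle (SD, n = 6 and 5), a difference of -1.61 ± 0.25, which is 3.06-fold lower. The same difference in these bulk samples could come from fewer cells of a type or from less RNA per cell, which cannot be told apart.

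The low A2m values belonged to the highest dose. The 6 arrays at 550 mg/kg also lay below all 29 other arrays, the highest of them at 8.02 and the lowest of the others at 8.49. Only 0.0193% of all probe sets had every 550 mg/kg array below the other 29, with 0.171% above. A2m was chosen for its low value at 550 mg/kg, so the share is printed for scale. From low to high dose, A2m averaged 9.21 ± 0.60 in vehicle, 9.47 ± 0.39 at 0.05, 9.30 ± 0.50 at 0.55, 9.07 ± 0.30 at 5.50, 9.09 ± 0.37 at 55 and 7.59 ± 0.42 at 550 mg/kg. The lowest and highest arrays were 9.08 and 10.02 at 0.05, 8.89 and 10.10 at 0.55, 8.75 and 9.48 at 5.50, and 8.64 and 9.54 at 55 mg/kg, so neighbouring groups below 550 mg/kg overlapped widely.

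**Figure D1:**
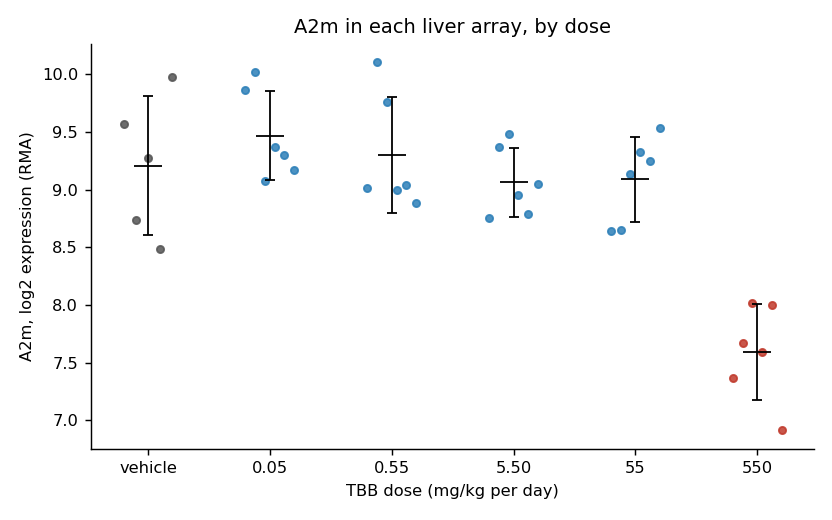
A2m log2 level in each of the 35 arrays (points) by TBB dose in mg/kg per day, with group means (horizontal bars) and SD (whiskers). All 6 arrays at 550 mg/kg, from 6.91 to 8.02, lie below the other 29, whose lowest value is 8.49.

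No comparison of A2m without the 550 mg/kg arrays passed the threshold. At 55 mg/kg it was -0.12 from vehicle (95% interval -0.62 to 0.38, adjusted p = 0.999), an interval that leaves room for a fall of up to 0.62. At 55 mg/kg against the mean of the 0.05, 0.55 and 5.50 mg/kg groups, which shares no array with the comparison A2m was chosen on, the difference was -0.19 ± 0.19 (95% interval -0.58 to 0.20, unadjusted p = 0.33, adjusted p = 1.00). At 5.50, 0.55 and 0.05 mg/kg A2m differed from vehicle by -0.14, 0.09 and 0.26, none past the threshold. The signs at 55 and 5.50 mg/kg turned to 0.07 and 0.05 without vehicle replicate 5, the highest vehicle array. The difference between 550 and 55 mg/kg, where no dose was tested in between, was -1.50 ± 0.23, or 2.82-fold lower.

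A2m was also the most variable of the 10 genes between arrays of the same group. Its SD within groups was 0.43, higher than that of 98.4% of all probe sets and of 98.0% among the 1000 probe sets nearest to it in level. The SD was 0.22 for Orm1, 0.15 for Lbp, 0.09 for Crp and from 0.024 to 0.045 for Hp, Hpx, Cp and the fibrinogens. The last 6 probe sets are among the brightest on the array, where the spread is generally narrow: the median SD within groups was 0.029 for the 30 brightest probe sets and 0.14 for all. None of those 30 and 4 of the 100 brightest passed the threshold at 550 mg/kg against vehicle, beside 0.499% of all probe sets. Whether bright probe sets were near the top of the measurable range was not tested.

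At 550 mg/kg against vehicle, 0 of the 9 other genes passed the threshold, beside 0.499% of all probe sets. At an unadjusted p under 0.05 there were 3, Orm1 and Crp with higher and Fga with lower levels, beside 8.67% of all probe sets. Their median difference was -0.02, and that of all 14217 genes -0.01. On the probe sets followed, none of their 95% intervals held a difference of the size seen for A2m. The lowest bound was -0.22, for Lbp. Among the further probe sets of these genes it was -0.31, for Fga. Whether bright probe sets show the full size of a difference was not tested.

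**Figure D2:**
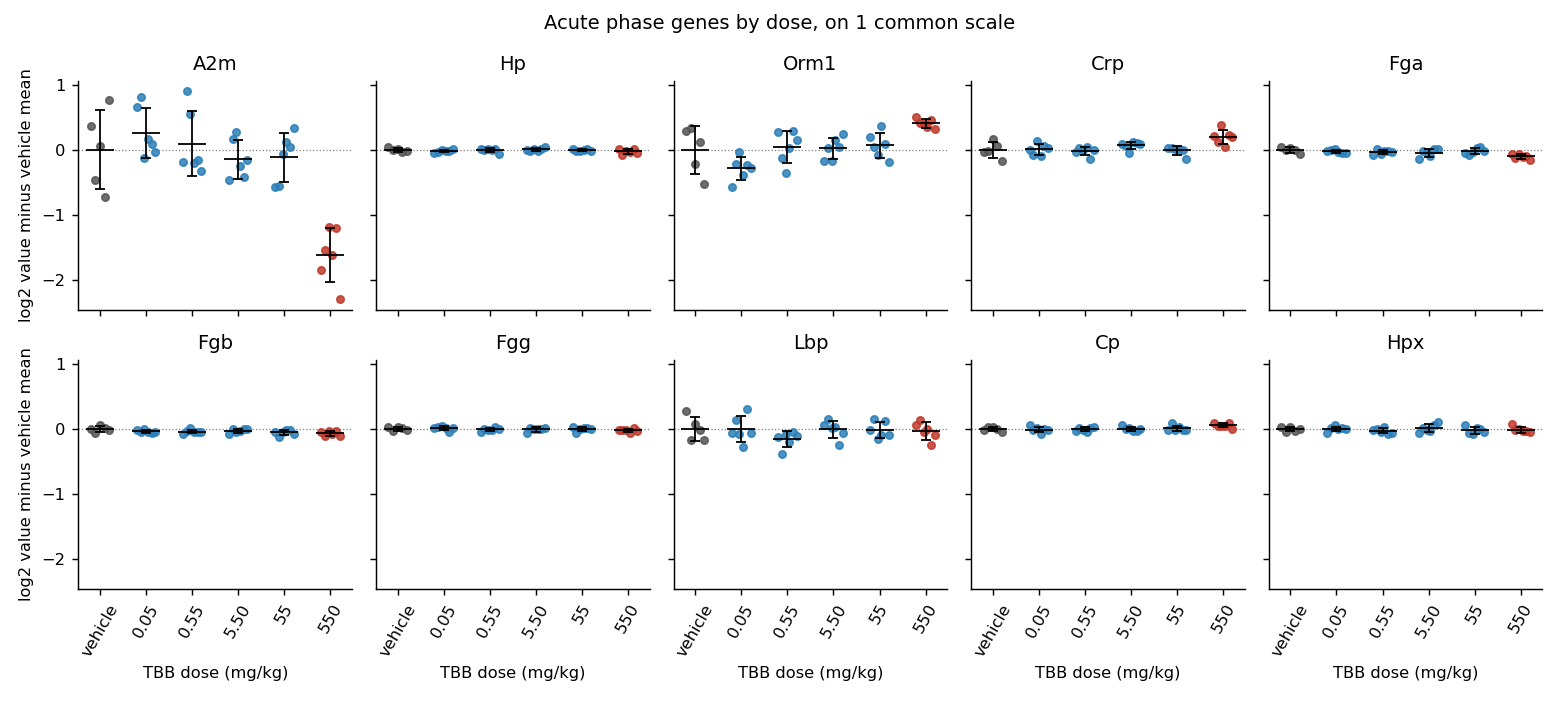
Log2 level minus the vehicle mean in each array (points), with group mean and SD, for the 10 genes by TBB dose in mg/kg on 1 common scale. A2m at 550 mg/kg averages -1.61, while Orm1 averages 0.41 and the other 8 genes lie between -0.10 and 0.20.

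Hp and Hpx encode the scavengers of free haemoglobin and of haem. Hp had 13.96, 13.88, 13.93, 13.93, 13.96 and 13.91 at 550 mg/kg, against 13.99, 13.95, 13.97, 13.92 and 13.94 in vehicle. The groups overlapped, and the difference was -0.03 (95% interval -0.09 to 0.04, adjusted p = 0.90). Hpx differed by -0.01 (95% interval -0.09 to 0.07, adjusted p = 0.97), with 13.45 to 13.57 at 550 mg/kg and 13.45 to 13.53 in vehicle. Both genes were within 0.03 of their vehicle means at the 4 lower doses.

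Orm1, which encodes the plasma lipocalin alpha-1-acid glycoprotein, had higher values at 550 mg/kg, in the opposite direction to A2m. The arrays gave 12.95, 12.85, 12.83, 12.79, 12.90 and 12.76 at 550 mg/kg, against 12.73, 12.76, 12.22, 12.56 and 11.91 in vehicle. The lowest 550 mg/kg array and the highest vehicle array were level, and vehicle spread far more, with an SD of 0.37 against 0.07 at 550 mg/kg. The difference was 0.41 ± 0.13 (95% interval 0.15 to 0.66) with an unadjusted p of 0.0025 that did not survive adjustment (adjusted p = 0.18). Orm1 was lowest at 0.05 mg/kg, with 12.15 ± 0.18, a difference of -0.28 from vehicle (unadjusted p = 0.030, adjusted p = 0.80). At 0.55, 5.50 and 55 mg/kg it averaged 12.48 ± 0.25, 12.46 ± 0.17 and 12.51 ± 0.20. Against 55 mg/kg the 550 mg/kg group differed by 0.34 ± 0.12 (adjusted p = 0.26).

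Crp and Lbp encode plasma proteins that bind microbial surfaces, Crp as a pentraxin that recognises phosphocholine and Lbp as a carrier of lipopolysaccharide. Crp had 12.52, 12.43, 12.69, 12.36, 12.54 and 12.51 at 550 mg/kg, against 12.28, 12.29, 12.48, 12.36 and 12.14 in vehicle. The groups overlapped, with 550 mg/kg mostly on the higher side, and the difference was 0.20 ± 0.06 (95% interval 0.08 to 0.31, unadjusted p = 0.0019, adjusted p = 0.16). Its 4 lower dose groups averaged 12.29 to 12.38. Between 550 and 55 mg/kg the Crp difference was 0.21 ± 0.06 with an adjusted p of 0.075, which dropped to 0.047 without 550 mg/kg replicate 4. Lbp showed no such shift, at 8.79 ± 0.13 at 550 mg/kg and 8.82 ± 0.19 in vehicle, a difference of -0.03 (95% interval -0.22 to 0.15, adjusted p = 0.96), and its sign turned when vehicle replicate 1 (0.04) or 550 mg/kg replicate 5 (0.01) was left out.

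Fga, Fgb and Fgg encode the 3 chains of fibrinogen, the clotting protein cut by thrombin. Fga had 13.82, 13.76, 13.81, 13.77, 13.79 and 13.73 at 550 mg/kg, against 13.93, 13.87, 13.91, 13.88 and 13.82 in vehicle. The groups met at 13.82, and the difference of -0.10 ± 0.04 (95% interval -0.18 to -0.02) had an unadjusted p of 0.011 and an adjusted p of 0.35. Fgb differed by -0.07 (95% interval -0.14 to 0.00, adjusted p = 0.62) and Fgg by -0.02 (95% interval -0.09 to 0.05, adjusted p = 0.91). Fgb and Fga thus leaned the same way as A2m, but their differences were small beside the -1.61 of A2m. Relative to 55 mg/kg, Fga differed by -0.08 (unadjusted p = 0.026, adjusted p = 0.42) and Fgb by -0.01 (unadjusted p = 0.67, adjusted p = 0.95). A further Fga probe set gave -0.14 (adjusted p = 0.69), and the further Fgb probe sets, far dimmer at mean levels of 5.30 and 3.02, gave -0.11 and 0.01.

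Cp encodes ceruloplasmin, the copper-carrying ferroxidase of plasma. It had 13.29, 13.24, 13.24, 13.24, 13.29 and 13.20 at 550 mg/kg, against 13.18, 13.22, 13.22, 13.20 and 13.15 in vehicle. The overlap was partial and the difference 0.06 (95% interval -0.02 to 0.13, adjusted p = 0.73). Its other probe sets disagreed in sign, at 0.13 (adjusted p = 0.33) and -0.12 (adjusted p = 0.62). No direction is given for Cp.

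**Figure D3:**
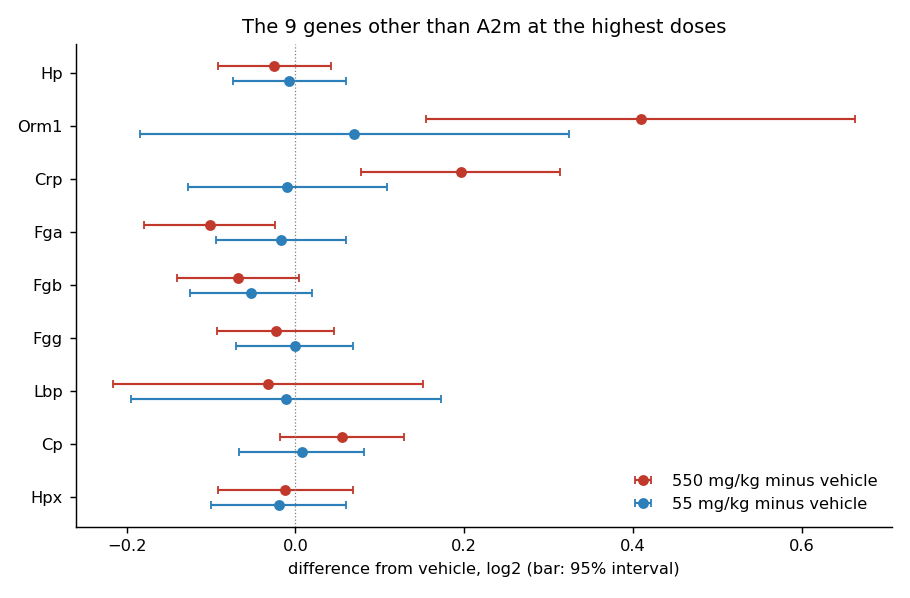
Log2 difference from vehicle for the 9 genes other than A2m at 550 mg/kg (red, upper) and 55 mg/kg (blue, lower), with 95% intervals that are not adjusted for the number of probe sets. At 550 mg/kg the intervals of Orm1 and Crp lie above 0 and that of Fga below 0, but none passed after adjustment, and at 55 mg/kg every interval includes 0.

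At the lower doses none of the 10 genes passed the threshold. At 55 mg/kg against vehicle the count was 0 of 10, beside 0.00644% of all probe sets, and no member had an unadjusted p under 0.05, beside 4.20% of all. At 5.50 and 0.55 mg/kg there were likewise 0 members at either level, beside 0% of probe sets adjusted and 4.95% and 3.86% unadjusted. At 0.05 mg/kg Orm1 alone had an unadjusted p under 0.05, beside 6.05% of all probe sets. In the comparison of 55 mg/kg with the mean of the 3 lower doses 0 of 10 passed, beside 0.00644%, and none had an unadjusted p under 0.05, beside 3.49%. The 550 mg/kg group set against 55 mg/kg had 0 of 9 past the threshold, beside 0.686% of all probe sets (0.110% lower and 0.577% higher), and 3 (Crp, Orm1 and Fga) at an unadjusted p under 0.05, beside 9.43%. This comparison shares the 550 mg/kg arrays with the one against vehicle.

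Other acute phase genes were listed by their textbook direction in inflammation, with earlier results of these data known. Of 24 measured other positive acute phase genes 0 rose and 0 fell at 550 mg/kg against vehicle, with 4 at an unadjusted p under 0.05, beside 1531 of 14217 genes, and a median difference of -0.02. The gene with the smallest p was Cd14, the lipopolysaccharide co-receptor, at 10.37 ± 0.26 at 550 mg/kg and 9.82 ± 0.25 in vehicle, a difference of 0.55 ± 0.14 (adjusted p = 0.067). That p was 0.047 with the 40% dimmest probe sets left out. Serpina3n, a serine protease inhibitor induced by interleukin-6, differed by -0.17 ± 0.06 (adjusted p = 0.28), and Lcn2, the iron-siderophore carrier lipocalin 2, by 0.37 ± 0.22 (adjusted p = 0.69), or by 0.21 without 550 mg/kg replicate 1. In 550 against 55 mg/kg, where 0.183% of the 14217 genes fell and 0.957% rose, 1 of 24 fell, Apcs (serum amyloid P), with 12.82 ± 0.10 at 550 and 13.04 ± 0.05 at 55 mg/kg, a difference of -0.22 (adjusted p = 0.025). Apcs fell outside the rule for naming and was picked after its value was seen. Its call was lost, with adjusted p from 0.052 to 0.082, without 55 mg/kg replicate 1, 2, 4 or 6 or without 550 mg/kg replicate 2 or 6, and was 0.13 with only these groups fitted.

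Among the negative acute phase genes, which inflammation lowers, 3 of 19 measured fell at 550 mg/kg and 0 rose, while 16 did not pass. Of the 14217 genes, 0.239% fell and 0.591% rose. Apoa1, already known to be low when the list was made, is among the 3, so the count is a description with no test. The median of the 19 was -0.05, and 14 of the 19 differences were negative, beside 7600 of 14217 genes. At an unadjusted p under 0.05 there were 8 of 19, beside 1531 of 14217 genes. Apoa1, the main protein of high-density lipoprotein, gave 12.70, 12.88, 13.20, 12.95, 12.87 and 12.93 at 550 mg/kg, against 13.42, 13.32, 13.60, 13.36 and 13.45 in vehicle. It fell by 0.51 ± 0.06 (adjusted p = 7.3e-06), with every 550 mg/kg array below the other 29, beside 0.0193% of all probe sets. Since Apoa1 was known to be low beforehand, these values are a description with no test. Serpina6, which encodes the plasma carrier of corticosterone, had 11.95, 12.01, 12.13, 11.98, 11.95 and 11.84 at 550 mg/kg, against 12.31, 12.33, 12.48, 12.41 and 12.48 in vehicle. The groups did not overlap, which held for 0.548% of all probe sets in the lower direction, and the difference was -0.43 ± 0.06 (adjusted p = 9.4e-05).

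Lcat, the plasma enzyme that esterifies cholesterol on lipoproteins, averaged 12.19 ± 0.08 at 550 mg/kg and 12.41 ± 0.04 in vehicle, a difference of -0.21 ± 0.05 (adjusted p = 0.028). That call was lost, with adjusted p from 0.064 to 0.10, without vehicle replicate 1, 3 or 4 or without 550 mg/kg replicate 2, 4 or 6, and was 0.21 with only these groups fitted. Alb (albumin) differed by 0.00 ± 0.03 (adjusted p = 1.00), with a sign that turned under 8 of 19 alternatives. Mug1, the alpha-macroglobulin relative murinoglobulin, which falls in rat inflammation, differed by 0.15 ± 0.08 (adjusted p = 0.65), or by 0.09 without 550 mg/kg replicate 3. Apoa1, Serpina6 and Lcat also fell against 55 mg/kg, by 0.38 (adjusted p = 3.4e-04), 0.34 (adjusted p = 0.0013) and 0.19 (adjusted p = 0.046). This comparison shares the 550 mg/kg arrays, so its Apoa1 value is again a description. Hrg, a histidine-rich plasma glycoprotein, rose against 55 mg/kg by 0.21 (adjusted p = 0.012), with 13.17 to 13.25 at 550 and 12.87 to 13.08 at 55 mg/kg. Hrg too was picked after its value was seen, and its adjusted p was 0.051 without 55 mg/kg replicate 6 and 0.099 with only these groups fitted. The Lcat call against 55 mg/kg was lost in 12 of 20 alternatives. At 55 mg/kg against vehicle 0 genes of either acute phase list passed, beside 0% of the 14217 genes lower and 0.0141% higher, and Apoa1, at -0.13, was among them (adjusted p = 0.999).

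The upstream genes were then examined for transcript levels, which do not measure receptor or kinase activity. Of 18 measured genes of the interleukin-6 receptors, the STAT3 route and its feedback, 0 rose and 0 fell at 550 mg/kg, with a median of -0.04. Stat3 differed by -0.02 ± 0.15, Il6r (the interleukin-6 receptor) by -0.05 ± 0.17 and Il6st by -0.03 ± 0.08. Socs3, a feedback inhibitor induced by STAT3, differed by 0.04 ± 0.14 and Cebpd, an acute phase transcription factor, by -0.05 ± 0.15. All 5 had adjusted p from 0.95 to 0.99, and each sign turned in at least 1 alternative. Ptpn11, a phosphatase of this route, had the smallest p (-0.15 ± 0.06, adjusted p = 0.46). Socs3 averaged 4.98 over the 35 arrays, below every array median (5.09 to 5.16). So did Il6 (2.80), Osm (3.25), Pim1 (3.72), Lifr (4.75) and Socs1 (4.83) of the same list. Whether a change could be seen at such low levels was not tested.

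Of 14 genes of the interleukin-1, TNF and NF-kappaB route, 1 rose at 550 mg/kg, Il1rap, the interleukin-1 receptor accessory protein, beside 0.591% of the 14217 genes. It averaged 9.68 ± 0.11 at 550 mg/kg and 9.42 ± 0.13 in vehicle, a difference of 0.26 ± 0.06 (adjusted p = 0.044). Its call was lost, with adjusted p from 0.066 to 0.21, without vehicle replicate 1, 2 or 3 or without 550 mg/kg replicate 1, 2, 3 or 5, and the mean of its probe sets gave 0.13 (adjusted p = 0.36). With only these groups fitted its adjusted p was 0.27. Of the 14 differences from vehicle at 550 mg/kg, 12 were positive (median 0.05), beside 6617 of 14217 genes. An unadjusted p under 0.05 was found for 3, beside 1531 of 14217 genes. At 55 mg/kg 11 were positive against the same vehicle arrays (median 0.06), beside 6676 of 14217 genes. Without vehicle, 11 were negative at 550 against 55 mg/kg (median -0.03), beside 7460 of 14217 genes. The neutrophil chemokine Cxcl1 differed by 0.92 ± 0.42 (adjusted p = 0.51), with wide spread, 5.73 ± 0.78 at 550 mg/kg and 4.80 ± 0.48 in vehicle. Of 11 glucocorticoid receptor and response genes 0 passed, with a median of -0.13 and Klf9, a glucocorticoid-induced transcription factor, at -0.36 ± 0.21 (adjusted p = 0.67), or -0.19 without 550 mg/kg replicate 2. The 6 measured genes of the alpha-macroglobulin family and its receptor had small positive differences, with a median of 0.05 and 0 calls. The receptor Lrp1, which clears alpha-2-macroglobulin bound to proteases, had the smallest p (0.25 ± 0.09, adjusted p = 0.33). At 55 mg/kg against vehicle 0 genes of these 4 lists passed. Cxcl1 had 6.09 ± 0.89 at 55 mg/kg and 4.80 ± 0.48 in vehicle, a difference of 1.28 (unadjusted p = 0.0044, adjusted p = 0.999). It averaged 5.37 ± 0.46 at 0.05, 5.50 ± 0.85 at 0.55 and 5.76 ± 0.84 at 5.50 mg/kg, so every dose group averaged above vehicle. The genes with the smallest p in the other 3 lists were Lifr at 0.26, Igfbp1 at 0.75 and Mug1 at 0.18, all with an adjusted p of 0.999.

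Markers of other liver cell types were set beside these results. Of 9 measured Kupffer cell and macrophage markers, the resident macrophages of the liver, 0 passed and all 9 were negative, with a median of -0.22, beside 7600 of 14217 genes negative. Against vehicle, 8 of 9 were also negative at 0.05, 9 at 0.55, 8 at 5.50 and 7 at 55 mg/kg. The medians were -0.12, -0.25, -0.11 and -0.06, and all these comparisons share the 5 vehicle arrays. Without vehicle, all 9 were negative at 550 against 55 mg/kg (median -0.14), beside 7460 of 14217 genes. At 55 mg/kg against the mean of the 3 lower doses, 7 were positive and 2 negative (median 0.11), beside 7285 of 14217 genes positive. The mean level of the Kupffer markers ran from 8.22 to 8.94 at 550 mg/kg and from 8.63 to 9.03 in vehicle. Of 4 red blood cell markers 0 passed and 4 were negative, with a median of -0.36 and a mean level from 6.51 to 6.93 at 550 mg/kg and from 6.94 to 7.27 in vehicle. At 0.05, 0.55, 5.50 and 55 mg/kg, 3, 4, 4 and 4 of them were negative against the same vehicle arrays, with medians of -0.08, -0.05, -0.11 and -0.19. Without vehicle, 3 of the 4 were negative at 550 against 55 mg/kg (median -0.15). All 4 were negative at 55 mg/kg against the mean of the 3 lower doses (median -0.09). At 550 mg/kg against vehicle 2 had an unadjusted p under 0.05, beside 1531 of 14217 genes. Hbb (beta-globin) had the smallest p of the 4 (-0.46 ± 0.15, adjusted p = 0.23). Slc4a1 and Epb42 averaged 4.83 and 4.10 over the arrays, below every array median. The 11 hepatocyte markers, which share Apoa1, Alb and Ttr (transthyretin) with the negative list, had a median of -0.07. Apoa1 alone fell, beside 0.239% of the 14217 genes. It was known to be low beforehand, so this is a description with no test. The mean level of the hepatocyte markers ran from 12.72 to 12.96 at 550 mg/kg and from 12.95 to 13.06 in vehicle. Of 5 neutrophil markers 0 passed, with a mean level from 4.29 to 4.72 at 550 mg/kg and from 4.32 to 4.73 in vehicle. The endothelial, stellate, cholangiocyte and lymphocyte lists had 0 calls and medians of -0.07, -0.08, -0.03 and -0.07. The smallest p in the remaining lists belonged to Clec4f (Kupffer, -0.34), Stab1 (endothelial, -0.24), Pdgfrb (stellate, -0.30), Spp1 (cholangiocyte, 0.20), Cd3g (lymphocyte, -0.31) and Fcnb (neutrophil, 0.24), with adjusted p from 0.35 to 0.76. The part of these cell types in the A2m values was not tested.

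Between arrays of the same group, the genes did not follow A2m as a block. After group means were taken out, the deviation of Orm1 from its group mean had a Pearson r of -0.48 with that of A2m over 35 arrays (Spearman rho -0.42). Without the 2 arrays farthest in A2m, 0.55 mg/kg replicate 2 and vehicle replicate 5, r was -0.35. Its slope on A2m was -0.24 ± 0.08 with an adjusted p of 0.38. Within single groups r was negative in vehicle and at the 4 lower doses, from -0.77 to -0.16, and 0.34 at 550 mg/kg. For Fgb and Fga the values were 0.34 and 0.28 (rho 0.35 and 0.30), for Fgg 0.21 and for Crp -0.26, and Hp, Hpx, Cp and Lbp lay between -0.06 and 0.09. A slope on A2m passed the threshold for 0 of the 9 genes, beside 0.0548% of the probe sets fitted (0.0451% with a positive and 0.00966% with a negative slope).

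The fibrinogen chains varied together between arrays of the same group, with higher r values among themselves than with A2m. Pearson r of the deviations was 0.67 for Fga with Fgb, 0.68 for Fga with Fgg and 0.69 for Fgb with Fgg (rho 0.68, 0.68 and 0.69). Without the 2 arrays farthest in the first gene named, r was 0.64, 0.59 and 0.63. Hp and Hpx had r = 0.53 (rho 0.54, 0.57 without 2 arrays) and Fga with Hpx 0.55 (rho 0.55, 0.51 without 2 arrays). These pairs were picked out of all pairs after their values were seen, they share the arrays, and all are bright probe sets with within-group SDs under 0.05, so the values are a description with no test.

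**Figure D4:**
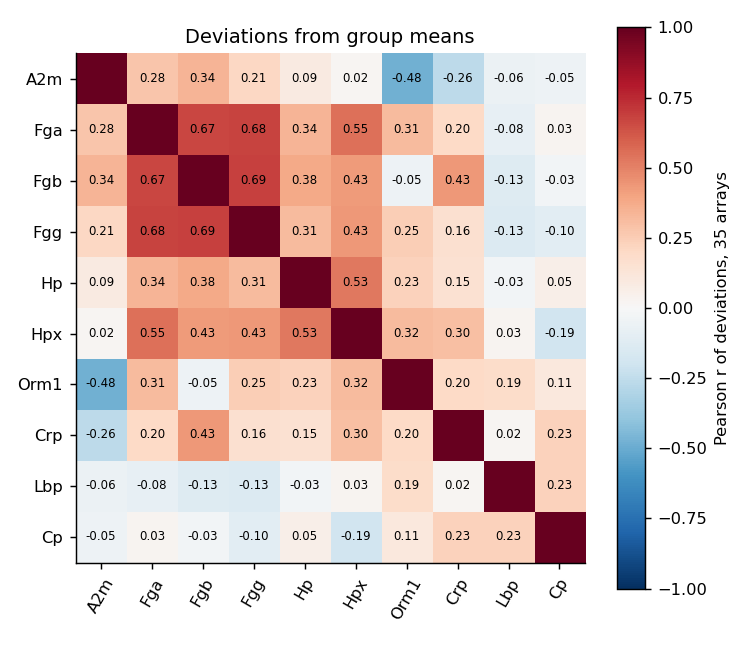
Pearson r between deviations from group means over 35 arrays for each pair of the 10 genes, from blue (negative) to red (positive). The fibrinogen chains have r from 0.67 to 0.69 with one another, and A2m has its strongest negative value, -0.48, with Orm1.

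**Figure D5:**
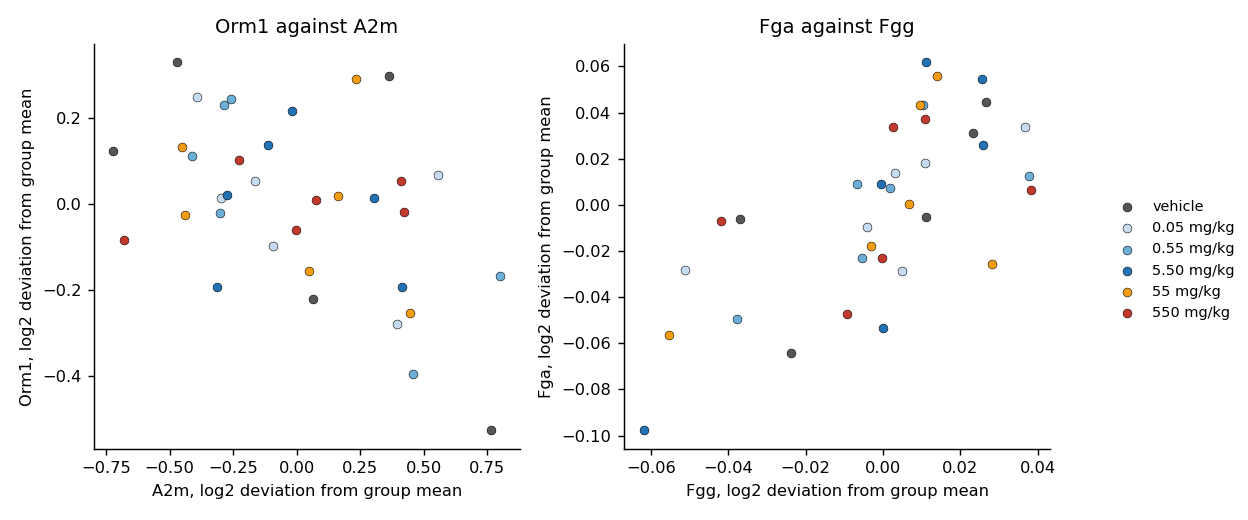
Log2 deviation from the group mean in each of the 35 arrays, coloured by dose, for Orm1 against A2m (left) and Fga against Fgg (right). The left panel runs downward (r = -0.48) and spans over 1 log2 unit of A2m, while the right panel runs upward (r = 0.68) over a far narrower range.

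The 5 genes most like A2m between arrays of a group, and the 5 least like it, stood on none of the acute phase lists. Those lists held only 10, 24 and 19 of the 14217 genes, so this absence is uninformative. Over the 35 deviations, Lcmt1, which methylates a phosphatase subunit, had the highest r at 0.80, followed by Ccs, the copper chaperone of superoxide dismutase, at 0.73, and by Thtpa, Rpl7 and Sirt3 at 0.72. The lowest were Adtrp at -0.78, Klhl2 at -0.70, Sult1c3 at -0.68, and Zwint and Pcp4 at -0.67. Slopes on A2m passed for Lcmt1 (0.45 ± 0.06, adjusted p = 9.9e-04), Sirt3, Adtrp, Klhl2 and Pcp4 (adjusted p from 0.036 to 0.042). Without the 2 arrays farthest in A2m no probe set passed in this fit, and Lcmt1 had an adjusted p of 0.13. By the values themselves over all 35 arrays, which include the low 550 mg/kg arrays, the most alike were Pemt at 0.84, Minpp1 and Apoa1 at 0.83, Cpn1 at 0.80 and Pheta1 at 0.79, given without a test. Of the negative acute phase genes, Serpina7, which encodes a thyroid hormone carrier, had a within-group r of 0.69, which ranked 9 from the top. Its slope was 0.72 ± 0.13 (adjusted p = 0.036). Serpina7 was picked after its value was seen, and its adjusted p was 0.32 without the 2 arrays farthest in A2m. The calls of Sirt3, Adtrp, Klhl2, Pcp4 and Serpina7 were each lost, with adjusted p from 0.053 to 0.61, without the vehicle group or without any one of the groups from 0.05 to 55 mg/kg. They were also lost with the replicate number as a block (adjusted p = 0.20 for Sirt3 and 0.13 for the others).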

How the data were processed

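Per the submitters' processing notes, the authors made the deposited log2 values per probe set with RMA and the affy package. Their versions were not given in the sources used here. RMA equalises array distributions, so a shift shared by most genes is not visible. No further normalisation was applied. Of 31099 probe sets, 57 Affymetrix controls were left out and 31042 tested. The platform annotation gave 20826 a single symbol, 436 several and 9780 none listed, and 20758 matched RefSeq (GRCr8) through Entrez identifiers. R 4.3.3 with limma 3.58.1 (lmFit, eBayes) fitted 1 mean per group over 35 arrays, two-sided, with Benjamini-Hochberg adjustment at 0.05. The median 95% half-width of a difference was 0.17, set by the number of arrays. Tested on simulated data for 550 mg/kg against vehicle, 194 of 200 probe sets changed by 1 were recovered among 31042, with 3 false calls. Python 3.11.15, pandas 2.3.3, matplotlib 3.10.9 and data.table (version 1.17.8) were also used.

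The members and lists were chosen with earlier results of these data known. The 10 members were named whatever their values, as were Stat3, Il6r, Il6st, Socs3, Cebpd, Mug1, Alb, Serpina3n and Lcn2. For each list up to 4 called genes, or else the gene with the smallest p, were named. Genes most like A2m were the 5 highest and 5 lowest by within-group r and the 5 highest by r of values. Alternatives were a filter on the 40% dimmest probe sets, array medians subtracted, cyclic loess, eBayes with trend and robust settings, array weights, a fit of only the groups compared, a block for the replicate number, each array left out, and the mean of a gene's probe sets.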

Additional observations from a re-analysis of the deposited data

Results flagged for a closer look

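In 4 of the 60 groups of arrays screened (10 genes by 6 groups), 1 array stood apart from the others of its group by more than Dixon's critical value, and chance alone gives about 1 in 20. Vehicle groups were not among them. For Hpx, 550 mg/kg replicate 1 had 13.57, above the others at 13.45 to 13.49. For Crp, 55 mg/kg replicate 6 had 12.17, below the others at 12.31 to 12.35. For Fgg, 5.50 mg/kg replicate 1 had 13.91, below the others at 13.97 or higher. For Hp, 0.55 mg/kg replicate 6 had 13.90, below the others at 13.95 to 13.97. No A2m array stood apart in this way.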

How the results depend on the processing

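The A2m difference at 550 mg/kg ran from -1.80 to -1.42 against vehicle and from -1.59 to -1.36 against 55 mg/kg; every alternative reuses the 550 mg/kg arrays on which A2m was chosen, so its direction was fixed by that choice. The count of other members past the threshold at 550 mg/kg against vehicle was 0 in every alternative run. Against 55 mg/kg it was 0, but 1 (Crp) with the 40% dimmest probe sets left out (adjusted p = 0.043), with trend and robust settings (0.031) and with the mean of a gene's probe sets (0.037), and 0 to 1 when single arrays were left out. Same-numbered arrays did not deviate together on average (mean r of deviations -0.001, differently numbered 0.0002). This average cannot show that the numbers carry no pairing. With the replicate number as a block, the count of members was 0 in every comparison, Stat3 turned to 0.031, Lcat and Il1rap lost their calls against vehicle (adjusted p = 0.068 and 0.072) and against 55 mg/kg (0.065 and 0.051), the slopes of Sirt3 (0.20), Adtrp, Klhl2, Pcp4 and Serpina7 (0.13 each) lost theirs, and 115 probe sets in place of 155 passed at 550 mg/kg against vehicle. That total was 41 with only those groups fitted, 77 without vehicle replicate 3 and 88 without 550 mg/kg replicate 2. Against 55 mg/kg, 213 passed, with 76 when only those groups were fitted and 327 with array weights. For the slope on A2m, 17 passed, with 0 to 44 over the alternatives.

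Differences near 0 changed sign. At 550 mg/kg against vehicle, Stat3 was 0.000974 with cyclic loess, and Alb was -0.00927 with medians subtracted, -0.017 with cyclic loess, -0.000905 with array weights and -0.0016 with the mean of its probe sets. Hpx against 55 mg/kg was -3.93e-05 with medians subtracted. With single arrays left out, the ranges against vehicle at 550 mg/kg were -0.077 to 0.035 for Lbp, -0.11 to 0.072 for Stat3, -0.12 to 0.048 for Il6r, -0.066 to 0.027 for Il6st, -0.031 to 0.12 for Socs3, -0.13 to 0.026 for Cebpd and -0.0022 to 0.0052 for Alb. Against 55 mg/kg they were -0.054 to 0.023 for Lbp and -0.0098 to 0.024 for Hpx. For A2m they were -0.30 to 0.074 at 55, -0.32 to 0.049 at 5.50 and -0.086 to 0.29 at 0.55 mg/kg against vehicle. The cause of these changes was not tested.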
